A study of Mus musculus with 12 samples.

Results

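Nuclear RNA of 3 groups of hippocampal nuclei titled Early, Late and Reactivated was compared, as 1 mean of equal weight per group on the log2 scale, with that of nuclei titled Basal. The comparison asks what the activated groups have in common, whatever the time at which they were collected. It covers 15668 of the 24015 rows of the deposited count table, namely the genes that reached a count of 10 in 3 or more of the 12 libraries. Each group has 3 libraries, so 9 activated libraries stand against 3 Basal libraries.

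All 12 libraries come from mice described as ArcCreERT2 x R26R-STOP-floxed eYFP, genotype +/+. In these mice the Arc gene drives a Cre recombinase that acts only with tamoxifen and switches on a yellow fluorescent protein for good, so the mark depends on Arc being active near the time of the drug. The protocol gives 24 h of darkness, 4-hydroxytamoxifen 1 h before contextual fear conditioning, and then either collection after 1.5 to 2 h or 48 h of darkness and collection on day 5, with or without a return to the tone and context. Sorting used antibodies to NeuN, Arc and GFP on nuclei fixed in 1% paraformaldehyde. A library holds a pool of 10 to 12 mice, and 10000 nuclei are given per condition. The treatment field is the same in all 12 libraries (foot shock and collection on day 0, no recall), so the groups were taken from the titles, and no label says which sorting gate or collection time a title stands for. No age or sex is given in the labels used here. All mice, the Basal ones included, share the transgenes, and no label describes Basal as unshocked or untreated.

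Neurons that fire strongly switch on a first wave of genes within minutes, the immediate early genes, many of which encode transcription factors such as Fos, Npas4 and Nr4a1. Calcium entry and the ERK kinase pathway reach these genes through CREB, which binds the cyclic AMP response element, and through serum response factor, which binds the CArG box. In the hippocampus, activity of this kind is spread unevenly over the granule cells of the dentate gyrus and the pyramidal neurons of CA3 and CA1, and few granule cells are active at a time. RNA taken from nuclei holds unspliced precursors and retained noncoding RNA in addition to messenger RNA.

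The start-site windows of 5 genes taken up below are printed first, because the motifs named above can be read in them and because 1 of them belongs to a gene that fell. Each window runs from 250 bases before to 50 bases after a start site of RefSeq, build GRCm38.p6, and is written 5′ to 3′ on the strand of the gene. Fos lies on the plus strand at chr12:85473640-85473939, Npas4 on the minus strand at chr19:4989922-4990221, Nr4a1 on the plus strand at chr15:101266596-101266895, Dusp5 on the plus strand at chr19:53528895-53529194 and Btg2 on the minus strand at chr1:134079106-134079405. Capitals mark TGACG or its reverse complement, the core of the cyclic AMP response element, and in Dusp5 also 2 CArG boxes.
Fos: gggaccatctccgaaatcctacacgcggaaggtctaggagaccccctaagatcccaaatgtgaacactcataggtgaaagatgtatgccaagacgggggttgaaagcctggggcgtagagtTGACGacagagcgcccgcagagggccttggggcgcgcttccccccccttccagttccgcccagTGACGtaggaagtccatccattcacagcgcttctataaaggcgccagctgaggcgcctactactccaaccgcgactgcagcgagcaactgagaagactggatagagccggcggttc
Npas4: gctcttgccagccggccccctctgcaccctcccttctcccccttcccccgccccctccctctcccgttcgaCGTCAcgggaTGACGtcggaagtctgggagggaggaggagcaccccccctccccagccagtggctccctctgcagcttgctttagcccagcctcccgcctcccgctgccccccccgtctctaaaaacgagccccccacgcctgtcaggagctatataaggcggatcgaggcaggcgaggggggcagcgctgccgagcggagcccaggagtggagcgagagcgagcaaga
Nr4a1: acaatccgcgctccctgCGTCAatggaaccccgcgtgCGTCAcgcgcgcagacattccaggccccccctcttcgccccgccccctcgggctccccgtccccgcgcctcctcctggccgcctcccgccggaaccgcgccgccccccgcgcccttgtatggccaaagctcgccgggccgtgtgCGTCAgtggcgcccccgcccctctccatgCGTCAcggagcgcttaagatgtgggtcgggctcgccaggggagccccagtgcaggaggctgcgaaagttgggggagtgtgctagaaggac
Dusp5: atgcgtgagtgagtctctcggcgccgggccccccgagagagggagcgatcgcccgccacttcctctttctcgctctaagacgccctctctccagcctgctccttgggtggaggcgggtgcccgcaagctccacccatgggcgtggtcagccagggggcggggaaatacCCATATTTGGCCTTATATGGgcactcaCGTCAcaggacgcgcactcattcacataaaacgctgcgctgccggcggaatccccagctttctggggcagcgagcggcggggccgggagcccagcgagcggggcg
Btg2: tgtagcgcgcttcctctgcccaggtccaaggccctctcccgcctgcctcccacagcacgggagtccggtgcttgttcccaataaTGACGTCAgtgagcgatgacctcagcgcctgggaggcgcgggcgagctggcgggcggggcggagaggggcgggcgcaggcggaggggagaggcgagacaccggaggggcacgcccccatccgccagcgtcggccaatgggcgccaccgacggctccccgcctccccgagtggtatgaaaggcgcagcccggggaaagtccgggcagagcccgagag
In Fos the 5-base core begins 129 and 66 bases before the start site, and in Npas4 179 and 169 bases before it. Nr4a1 holds 4 copies. Dusp5 holds 1 copy 55 bases before the start site, next to CArG boxes that begin 82 and 72 bases before it. Btg2 holds the whole palindrome TGACGTCA, 166 bases before the start site. Such matches describe the letters of a window only. The 5 windows were printed because they hold the core. The windows of Klk8, Klk9 and Klk10 and the 2 windows of Prox1, genes with larger changes, hold none. The core stood in 29.4% of windows of genes that rose, 26.2% of those that fell and 28.5% of all genes tested.

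Total counts ran from 4838166 to 11120255 per library, and Basal 1 and Basal 2 were the shallowest. Replicates correlated across genes with r of 0.917 to 0.985 on log2 of normalized counts plus 1. Rn45s, the precursor of ribosomal RNA, made up 7.36% ± 4.19 of Basal counts and 8.51% ± 3.83 of Early counts, but 33.4% ± 4.76 of Late and 22.4% ± 4.69 of Reactivated counts (SD, n = 3 libraries per group), so that its share moves with the activated mean. Basal 3 and Early 3 had the highest share of their groups, 12.2% and 12.9%, and stood apart from their replicates on the first principal component (48.7% of the variance). Rbfox3, the gene of the NeuN protein used for sorting, was detected in every library, with means of 1779, 1751, 2267 and 1853 in Basal, Early, Late and Reactivated normalized counts. The part of this share in the results was not tested beyond a fit that holds it as a covariate.

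A gene is said to have risen or fallen when its mean over the 3 activated groups differed from Basal at an adjusted p under 0.05 (edgeR's quasi-likelihood test, Benjamini-Hochberg over all 15668 genes). By that test 6040 genes (38.5%) changed, of which 3136 (20% of all genes) rose and 2904 (18.5%) fell, and the median log2 fold change of all genes was -0.01. A change of at least 2-fold was seen in 1141 of the genes that rose and 977 of those that fell. A separate test in the same fit asked whether Early, Late and Reactivated differ from each other, and 7680 genes (49%) did. They include 4238 of the 6040 genes called (70.2%), so most genes of the mean change did not change by the same amount in each group. The activated groups share the 3 Basal libraries, and an unusual Basal library would shift all of them together.

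A stricter view keeps the genes whose 9 activated libraries all lie on 1 side of the 3 Basal libraries. There were 859 genes with all 9 above (5.48%) and 928 with all 9 below (5.92%), of which 846 and 881 were also called. Among these, the 3 activated groups lay within 2-fold of each other in 629 genes that rose and 697 that fell, and 263 and 225 of those changed at least 2-fold. The counts rest on Basal 3, since without it 2104 genes had all activated libraries above and 1895 below. The count of genes called was 3867 without Basal 1 and 3633 without Basal 2, and it was 2675 without the Late group. With the 9 activated libraries treated as 1 group 1122 genes were called, all with the same direction as before, and 535 were called when the Rn45s share was a covariate. Scaling by the upper quartile moved the median of all genes to -0.12 and the share of called genes that rose from 51.9% to 39.9%. Scaling every library to the same total moved them to -0.48 and 14.1% (1143 rose and 6950 fell). By counts of calls, 24 of 35 gene lists described here had more rises than falls, and at the same total 9 of them still did: the CA1, CA3 and CA2, mossy cell, subiculum and cortex, immediate early, ERK, transmitter release, microtubule and structural RNA lists. The other 15 had more falls under that scaling, as all genes did. With the upper quartile 19 kept more rises, 3 were equal and 2, the potassium channel and glucocorticoid lists, had more falls.

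**Figure D1:**
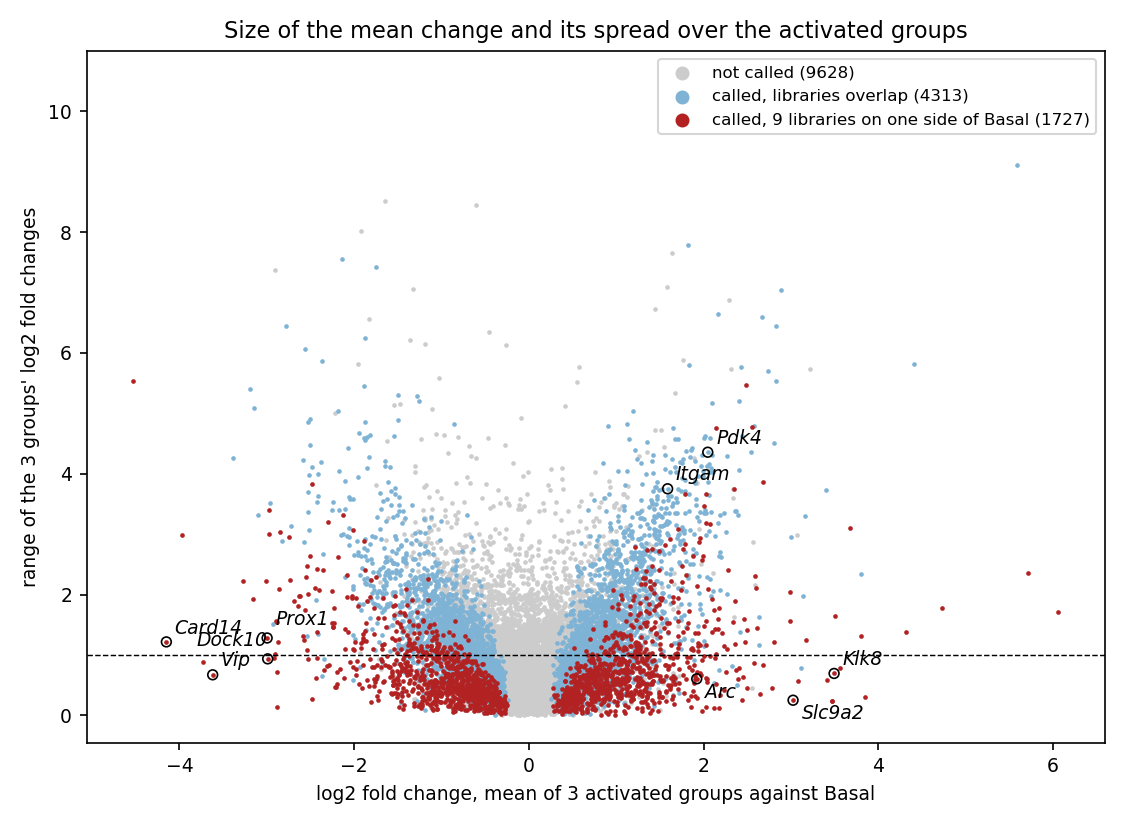
Each of the 15668 genes is a point at its log2 fold change of the activated mean against Basal (horizontal axis) and the range of the log2 fold changes of the 3 activated groups (vertical axis, log2 units). Red points are the 1727 called genes whose 9 activated libraries lie on 1 side of Basal, blue points the other 4313 called genes, and the dashed line marks a range of 1 (2-fold). Slc9a2, Klk8 and Vip lie under the line with large mean changes, while Pdk4 and Itgam lie far above it.

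The named genes with the largest shared rise were Klk8, Slc9a2 and Skap2. Klk8, which encodes neuropsin, a secreted protease of the hippocampus, had normalized counts of 2.59, 6.73 and 5.02 in the 3 Basal libraries. Its counts were 83.5, 55.9 and 74.3 in the Early libraries, 40.8, 39.6 and 50.4 in the Late and 45.4, 81 and 44.4 in the Reactivated ones. Lack of overlap was a condition for naming these genes and the largest falls, as was a mean of at least 50, which Klk8 met only in the activated groups. The rise was 11.3-fold (log2 fold change 3.50 ± 0.36, adjusted p = 1.48e-05 by edgeR). Its 3 Basal libraries held 15 counts together before scaling, so the size of the fold change rests on a Basal level near the floor. Slc9a2, a sodium and proton exchanger, had counts of 32.4, 32.5 and 68.9 in Basal against 344, 356 and 452 in the Early libraries, 455, 441 and 334 in the Late and 233, 462 and 333 in the Reactivated ones. The lowest activated library was more than 3 times the highest Basal library, and the 3 activated groups did not differ at the threshold (adjusted p = 0.693 among them). The gene rose 8.14-fold (3.02 ± 0.28, adjusted p = 5.94e-06). Skap2, an adaptor of Src family kinases, had 15.5, 7.86 and 12.9 in Basal and 59.5 to 98, with a median of 90.6, over the 9 activated libraries, a rise of 6.88-fold (2.78 ± 0.24).

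The other genes named by the same rule reach into signalling, adhesion and cell identity. Dusp5, a nuclear phosphatase that switches ERK off, had 5.18, 13.5 and 10.8 in Basal against 47, 38.6 and 66.8 in the Early libraries, 66, 68.7 and 73.8 in the Late and 55.1, 41.4 and 61.3 in the Reactivated ones, a rise of 5.63-fold (2.49 ± 0.31, adjusted p = 5.44e-05 by edgeR). Pvrl3, the older symbol of the adhesion molecule nectin-3, rose 5.49-fold, from 45.3, 52.8 and 61.7 to 173 to 396, with a median of 336. Neurod6, a transcription factor of pyramidal neurons, was almost level across the activated groups, with means of 122, 557, 528 and 571 in Basal, Early, Late and Reactivated and a rise of 4.51-fold (2.17 ± 0.19, adjusted p among the activated groups = 0.862). Chst8, a sulfotransferase, rose 5.29-fold, Gpr161, a receptor of the primary cilium, 5.27-fold, and Fn1, which encodes fibronectin, 5.17-fold. Cpne7, a copine that binds phospholipids with calcium, rose 4.69-fold and Akap13, an anchor of protein kinase A, 4.55-fold. In both of these Basal 3 was more than 2 times as high as Basal 1 and Basal 2, with 977, 728 and 3027 for Cpne7 and 902, 782 and 2124 for Akap13. Thsd4, a secreted protein with thrombospondin repeats, rose 4.42-fold.

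The named genes with the largest shared fall were led by Vip, the neuropeptide of one class of interneurons. It had 192, 282 and 172 normalized counts in Basal against 19.8, 24.1 and 10 in the Early libraries, 7.21, 15.8 and 16.8 in the Late and 33, 19.4 and 14.2 in the Reactivated ones. Every activated library was at most 33 while the lowest Basal library was 172, a fall of 12.3-fold (-3.62 ± 0.26, adjusted p = 9.49e-07 by edgeR). Dock10, an exchange factor of small GTPases that marks granule cells, fell 7.94-fold, from 2687, 3246 and 1749 to 218 to 520.4, with a median of 241. C1ql2, a secreted protein of granule cell synapses, had 442, 608 and 232 in Basal and means of 58.7, 54.5 and 62 in Early, Late and Reactivated (7.41-fold lower). Trpc6, a cation channel, fell 5.59-fold, Sema5a, a guidance protein, 4.6-fold, and Slc4a4, a sodium and bicarbonate transporter, 4.67-fold.

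Btg2 stands out among the genes that fell because it is itself counted with the immediate early genes. It restrains cell division, and its printed window holds the full cyclic AMP response element. Its counts were 114, 113 and 119.8 in Basal and 35.5, 37.2 and 24.2 in the Early libraries, 26.4, 25.1 and 13.1 in the Late and 12.4, 15.8 and 25.8 in the Reactivated ones, so that the highest activated library, with 37.2, was far below the lowest Basal one (-2.31 ± 0.23, 4.96-fold lower, adjusted p = 1.1e-05 by edgeR). Mcm6, a subunit of the replication helicase, fell 5.1-fold, from 90.7, 94.3 and 78.9 to 16.7, 16.6 and 22.6 in the Early libraries, 14.4, 15.8 and 8.4 in the Late and 37.2, 0 and 29.3 in the Reactivated ones, 1 of which had no read. Il20rb, a cytokine receptor subunit, fell 7.53-fold, Ccdc33, a coiled-coil protein, 7.39-fold, Postn, which encodes the matrix protein periostin, 5.42-fold, and Slc29a4, a monoamine transporter, 4.88-fold.

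**Figure D2:**
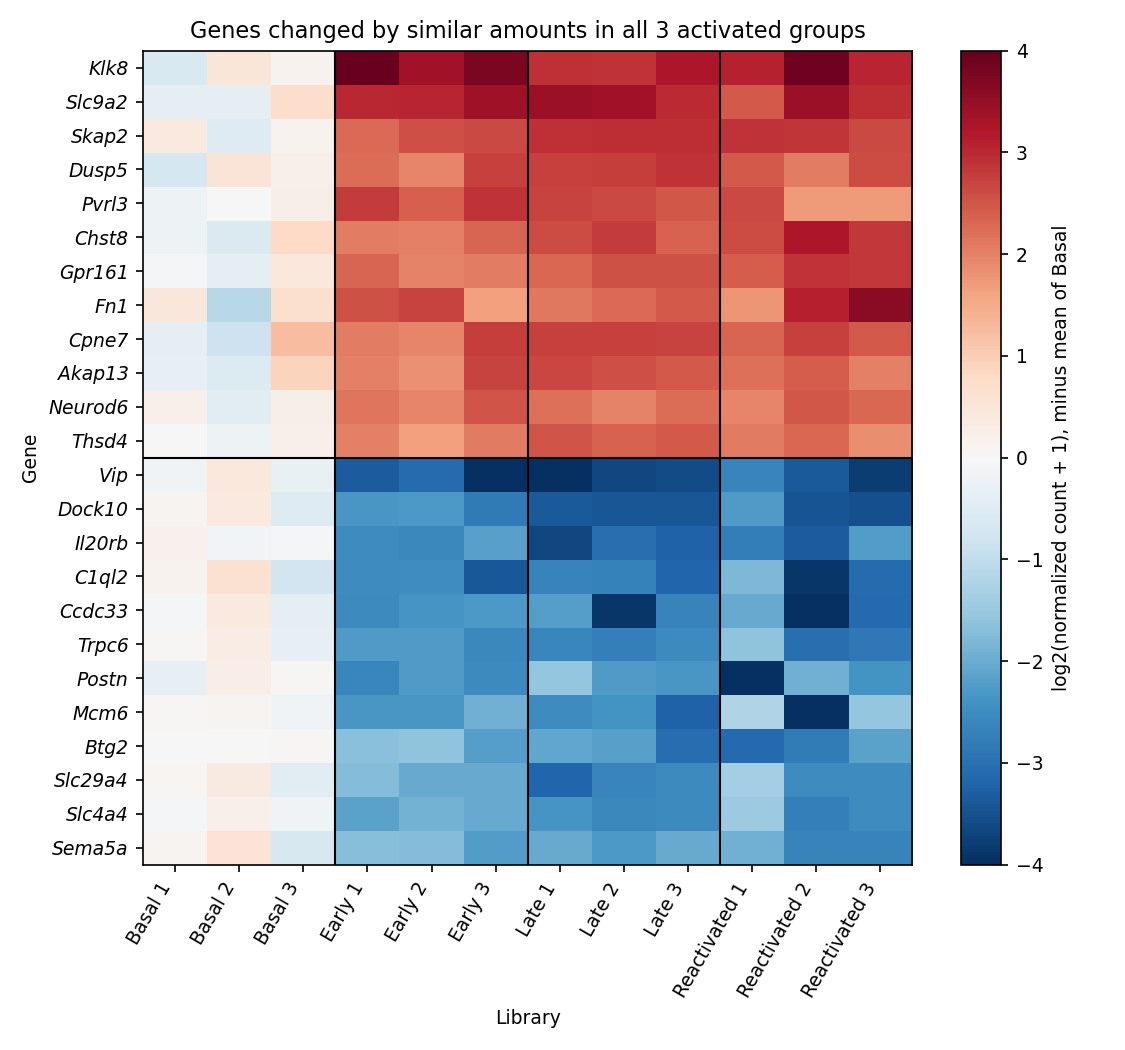
Rows are the 12 genes that rose (upper block) and the 12 that fell (lower block) by the rule that the 3 activated groups lie within 2-fold of each other, and columns are the 12 libraries. Thsd4, Gpr161 and Dock10 still differed among the activated groups (adjusted p = 0.0345, 0.037 and 0.0488 by edgeR). Colour gives log2 of the normalized count plus 1 minus the Basal mean of that value, with values beyond 4 drawn at the end of the scale. Each of the 9 activated libraries is red in every upper row and blue in every lower row, which follows from the rule, as it asks for no overlap with Basal. Basal 3 leans towards the activated libraries in Cpne7, Akap13 and Dock10.

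When the activated groups were allowed to differ by more than 2-fold, the kallikreins Klk10 and Klk9 joined Klk8. The 3 genes are neighbours on chromosome 7 in RefSeq. Klk10 had 2.59, 2.25 and 5.74 in Basal against 100.2, 82.1 and 120.3 in the Early libraries, 52.8, 23.8 and 43.9 in the Late and 41.3, 42.2 and 40 in the Reactivated ones (14-fold higher), and Early was the highest group (adjusted p = 0.00241 among the activated groups). Klk9 rose 9-fold. Inhbb, a subunit of activin B, rose 7.93-fold and had its highest counts in Late, with means of 8.42, 30.4, 125 and 83.4 in Basal, Early, Late and Reactivated. Among the falls of this kind were Card14, a scaffold of NF-kappaB signalling (17.8-fold), Glis3, a zinc finger factor (8.94-fold), Slc15a2, a peptide transporter (8.04-fold), and Prox1 (7.98-fold).

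Markers of dentate granule cells were lower in every activated group. Of 18 markers, 1 rose and 17 fell, with a median log2 fold change of -2.20, against 18.5% of all genes that fell, and in 14 of them the 9 activated libraries were all below Basal. The latter held for 5.92% of all genes. Prox1, the transcription factor that sets granule cell identity, had 1543, 1861 and 1505 normalized counts in Basal against 265, 299 and 306 in the Early libraries, 110.5, 129.5 and 119 in the Late and 457, 180.4 and 119 in the Reactivated ones. The highest activated library, Reactivated 1, was still far below Basal, and the fall was 7.98-fold (log2 fold changes of -2.49, -3.77 and -2.72 in the 3 groups, adjusted p = 2.24e-06 by edgeR). Lct, which encodes lactase and is a marker of the same cells, fell 7.34-fold, with means of 536, 126, 54 and 57.5 in Basal, Early, Late and Reactivated. The markers that fell least were Rfx3 (-0.98 ± 0.22), Calb1 (-1.07 ± 0.15) and Ahcyl2 (-1.10 ± 0.11). The member that rose was Bcl11a (0.81 ± 0.12), a factor that pyramidal neurons use as well.

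Summed over the list, granule markers had 18240, 21460 and 15010 normalized counts in Basal. The Early sums were 6341, 6493 and 6195, the Late sums 10760, 9670 and 6975 and the Reactivated sums 7846, 5168 and 4805, so the highest activated library stayed below the lowest Basal one. The medians of the group changes were -1.84, -2.10 and -2.19 in Early, Late and Reactivated. In bulk libraries of this kind, fewer nuclei of a type and less RNA per nucleus cannot be told apart. With the Rn45s share as a covariate 9 of the markers fell and 0 rose, and with the activated libraries as 1 group 13 fell. Of all 15668 genes, 246 and 510 fell in these fits in the order given, against 2904 before.

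Markers of pyramidal neurons moved the other way. Of 12 CA1 markers, 10 rose and 0 fell, with a median log2 fold change of 1.68, and in 8 all 9 activated libraries were above Basal. Over all genes tested, 20% rose, 18.5% fell and 5.48% had all 9 above. Wfs1, a protein of the endoplasmic reticulum that is strong in CA1, had 144, 163 and 141 in Basal against 480.1, 459 and 319 in the Early libraries, 453, 490.1 and 458 in the Late and 653, 409 and 512 in the Reactivated ones, a rise of 3.13-fold (1.65 ± 0.17, adjusted p = 1.39e-05 by edgeR). Gpr161 is on this list too, and its counts were 68.7, 56.1 and 95.4 in Basal and 286 to 533, with a median of 392, in the activated libraries. Nov, a secreted matricellular protein, rose 3.82-fold and was highest in Reactivated (114, 308, 346 and 792 in Basal, Early, Late and Reactivated). The members that did not pass were Ndst4 (0.53 ± 0.29) and Zdhhc22 (-0.43 ± 0.31). The CA1 sum was 1280, 1121 and 1512 in Basal, and the Early sums were 3135, 2955 and 2695, the Late sums 4482, 4376 and 3844 and the Reactivated sums 4104, 4941 and 4773, with no overlap.

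Of 17 CA3 and CA2 markers, 12 rose and 1 fell (76.5% called, beside 38.5% of all genes), with a median log2 fold change of 1.03. In 9 all activated libraries were above Basal, as in 5.48% of all genes. Hs3st4, a heparan sulfate sulfotransferase, rose 4.07-fold (214, 609.7, 1374 and 813 in Basal, Early, Late and Reactivated), Chgb, which encodes a protein of dense-core vesicles, 2.43-fold, Iyd, an iodotyrosine deiodinase, 4.01-fold and Rgs14, a CA2 regulator of G proteins, 2.04-fold. Cacng5, an AMPA receptor auxiliary subunit, was the marker that fell (-0.83 ± 0.28). The sum was 6261, 5636 and 8120 in Basal, and the Early sums were 14290, 13070 and 20970, the Late sums 21360, 20890 and 19750 and the Reactivated sums 18370, 21040 and 18160. Early 3 and Basal 3, the libraries with more Rn45s, were the highest of their groups. With the Rn45s share as a covariate 3 of these markers rose, while 7 of the CA1 markers did. That fit called 289 of all 15668 genes as risen.

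Of 13 markers of the subiculum and cortex, 7 rose and 1 fell (61.5% called, beside 38.5% of all genes), with a median log2 fold change of 1.08. Rspo2, a Wnt agonist, rose 3.3-fold, and Rorb, an orphan nuclear receptor of cortical layer neurons, 4.61-fold, mostly through Late and Reactivated (601, 946, 5819 and 3901 in Basal, Early, Late and Reactivated). Their sum was 3350, 3250 and 4369 in Basal, and it overlapped this range in Early (4285, 4867 and 4777) but reached 21190, 18600 and 11410 in the Late libraries. Of 9 markers of mossy cells, 5 rose and 1 fell (66.7% called), with a median log2 fold change of 0.91. Ociad2 (2.03-fold) and Ajap1 (1.88-fold) rose with little difference between the activated groups, while Csf2rb2, a cytokine receptor, rose through Late (424, 473, 3310 and 720.4 in Basal, Early, Late and Reactivated).

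Interneuron markers were lower on the whole but split. Of 21, 3 rose and 11 fell, with a median log2 fold change of -0.53, and 5 that fell and 2 that rose did not overlap with Basal. Beside this, 20% of all genes rose and 18.5% fell, and 5.48% lay all above and 5.92% all below Basal. After Vip, the smallest p-values belonged to Adarb2, an RNA editing protein of interneurons from the caudal ganglionic eminence (1588, 853, 687 and 666 in Basal, Early, Late and Reactivated, 2.17-fold lower), and Erbb4, the neuregulin receptor (810.1, 296, 230.5 and 296 in Basal, Early, Late and Reactivated, 2.98-fold lower). Gad1, an enzyme that makes GABA, fell by 0.79 on the log2 scale. The members that rose were Pvalb, a calcium buffer of fast-spiking cells (1.31 ± 0.32), Cck (1.01 ± 0.25) and the cannabinoid receptor Cnr1 (1.15 ± 0.15), and Sst (0.20 ± 0.22) and Slc32a1, the vesicular GABA transporter (0.08 ± 0.19), did not pass. With the activated libraries as 1 group 1 rose and 5 fell, and with the Rn45s covariate 2 and 3. Of all 15668 genes, 612 rose and 510 fell in the first of these fits and 289 and 246 in the second.

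Among markers of cells other than neurons, 33.3% of the astrocyte list and 33.3% of the oligodendrocyte list were called, beside 38.5% of all genes. Of 15 astrocyte markers, 3 rose and 2 fell, with a median log2 fold change of -0.24. The fall of Slc4a4, also present in neurons, and a rise of Ntsr2, a neurotensin receptor (2.65-fold), had no overlap with Basal, whereas Aqp4, Gja1 and Aldh1l1, markers with little expression in neurons, had log2 fold changes of -0.24 ± 0.41, 0.06 ± 0.45 and 0.03 ± 0.28 and did not pass. Sox9, a factor of glia taken up again below, went the other way, with log2 fold changes of 0.29, 3.78 and 1.66 in Early, Late and Reactivated. Of 12 oligodendrocyte markers, 2 rose and 2 fell, with a median log2 fold change of -0.28, with St18, a zinc finger factor, 2.71-fold lower and no overlap. Their sum was 4230, 3649 and 3450 in Basal and 3530, 2982 and 2627 in the Early libraries. It was 11000, 8872 and 5782 in the Late and 8847, 4226 and 3743 in the Reactivated ones. Every Late sum was above Basal, although the medians of the group changes were -0.22, -1.02 and 0.56 in Early, Late and Reactivated. Of 10 precursor markers, 1 rose and 1 fell, and of 9 choroid plexus and ependyma markers 0 and 1, shares called of 20% and 11.1%. The summed ranges of the astrocyte list overlapped in all groups (5487 to 8692 in Basal and 4477 to 10690 in the activated libraries).

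Of 9 microglia markers tested, 3 rose and 2 fell (55.6% called, beside 38.5% of all genes), with a median log2 fold change of 0.28. The medians of the group changes were -0.12, 0.34 and 0.66 in Early, Late and Reactivated, so only the sum of the list was highest in Late. This sum was 948, 1074 and 1082 in Basal, 878, 911 and 1114 in the Early libraries, 10300, 8229 and 6082 in the Late and 2467, 1473 and 1165 in the Reactivated ones, so that Late and, by less, Reactivated lay above Basal while Early overlapped it. Itgam and Cx3cr1 made up most of the Late sums. Itgam, an integrin of microglia, had 242, 298 and 312 in Basal and 268, 245 and 338 in the Early libraries, 4505, 3733 and 3223 in the Late and 903, 485 and 365 in the Reactivated ones, and Cx3cr1, the fractalkine receptor, had means of 330.1, 320.2, 3841 and 629 in Basal, Early, Late and Reactivated. P2ry12 (-1.02 ± 0.39) and P2ry13 (-0.52 ± 0.18), 2 receptors of the same cells, fell, and Tmem119, C1qa, C1qb, Trem2 and Fcrls were too low to test, with at most 24 counts in any library. The calls on microglia markers ended in the edgeR fit without the Late group, which called 2675 of all 15668 genes, and their median there was 0.24. Of 11 blood vessel markers, 6 fell and 0 rose (54.5% called), but the fall rests on Basal 1, whose sum was 855 against 203 and 168 in Basal 2 and Basal 3 and 134 to 414 in the activated libraries. Without Basal 1, 1 vessel marker fell and the median was 0.03.

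**Figure D3:**
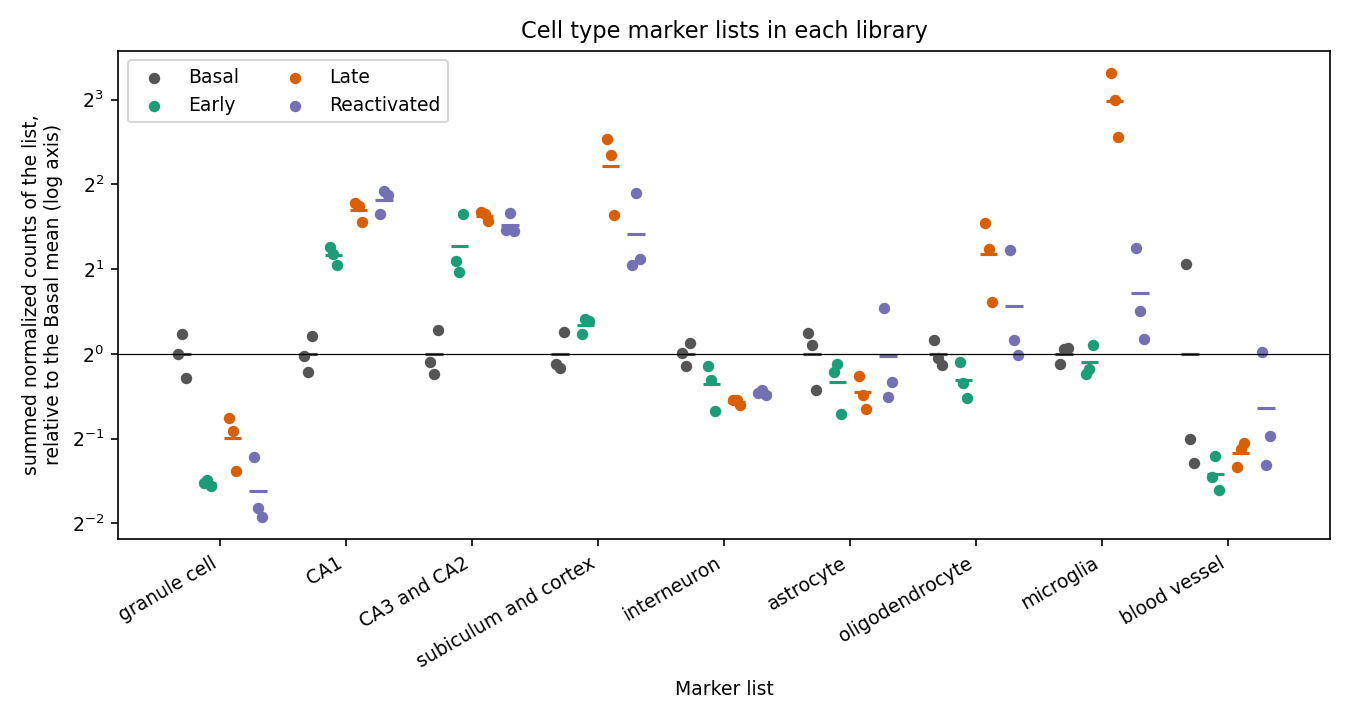
Each point is 1 library, placed at the summed normalized counts of a marker list divided by the Basal mean of that sum, on a log axis; short lines are group means of 3 libraries. Granule cell sums of all 9 activated libraries lie below the 3 Basal libraries and CA1, CA3 and CA2 sums above them, while astrocyte sums overlap. Microglia sums stand out in Late, oligodendrocyte sums of the Late libraries lie above Basal and Basal 1 stands apart in blood vessel.

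Immediate early genes were higher in the activated groups. Of 23, 16 rose and 2 fell, with a median log2 fold change of 0.94, against 20% of all genes that rose, and in 10 all 9 activated libraries were above Basal. The latter held for 5.48% of all genes. Arc, which encodes a synaptic protein and whose product was stained for the sort, had 150.3, 102 and 183 normalized counts in Basal against 554, 337 and 415 in the Early libraries, 602, 635 and 541 in the Late and 499.7, 713 and 766 in the Reactivated ones. The lowest activated library, Early 2, was above the highest Basal library, and the rise was 3.79-fold (1.92 ± 0.21, adjusted p = 2e-05 by edgeR). Nr4a1, an orphan nuclear receptor with 4 copies of the core motif in its window, had 142, 117 and 159 in Basal against 387, 357 and 347 in the Early libraries, 349.5, 378 and 404 in the Late and 334, 431 and 575 in the Reactivated ones, a rise of 2.82-fold that was close to the same in each group (adjusted p among the activated groups = 0.299).

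Npas4, a factor that answers to calcium entry, rose 2.56-fold, from 62.2, 53.9 and 74.6 in Basal to 144, 178 and 133 in the Early libraries, 186, 149 and 164 in the Late and 151, 195 and 174 in the Reactivated ones. Its activated groups lay close together as well (1.35 ± 0.17, adjusted p among them = 0.624). Fos was low throughout, with 5.18, 5.61 and 10.8 in Basal and 15.1 to 51.9, with a median of 18.6, over the activated libraries. All 9 were above Basal and the rise was 2.95-fold (1.56 ± 0.44, adjusted p = 0.0121 by edgeR), but the call ended without Basal 1 (1.40, adjusted p = 0.0599) and without Basal 2 (1.41, adjusted p = 0.065). It ended too with the activated libraries as 1 group (adjusted p = 0.0552) and in the fit with the Rn45s share (adjusted p = 0.191), where the log2 fold changes were as large, 1.62 and 1.91, and over all settings the adjusted p of Fos ran from 0.0038 to 0.191. Egr1, a zinc finger factor, rose 2.23-fold but unequally, with 117, 93.2 and 86.8 in Basal against 262, 219 and 179.6 in the Early libraries, 142, 133 and 165 in the Late and 278, 383 and 319 in the Reactivated ones (adjusted p among the activated groups = 0.000696).

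Fosb (1.65 ± 0.23), Nr4a3 (1.85 ± 0.28), Fosl2 (1.32 ± 0.19), Junb (1.26 ± 0.22), Egr4 (1.27 ± 0.27) and Gadd45b (1.25 ± 0.35), a protein of DNA demethylation and stress, also rose. Jun fell (-0.56 ± 0.12), as Btg2 did, while Egr2 (-0.28 ± 0.51), Ier2 (-0.26 ± 0.38) and Crem (-0.48 ± 0.34) did not pass. Bdnf, the growth factor that many of these factors switch on, did not pass either. It had 260.4, 332 and 320 in Basal against 322, 247 and 324 in the Early libraries, 771, 855 and 504 in the Late and 307, 523 and 248 in the Reactivated ones (0.47 ± 0.21, adjusted p = 0.0906 by edgeR), so that Early and Reactivated overlapped Basal and Late lay above it. The count of immediate early genes that rose was 10 with every library scaled to the same total, 7 with the activated libraries as 1 group and 7 with the Rn45s covariate. Of all 15668 genes, 1143, 612 and 289 rose in these settings in the order given, against 3136 before.

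**Figure D4:**
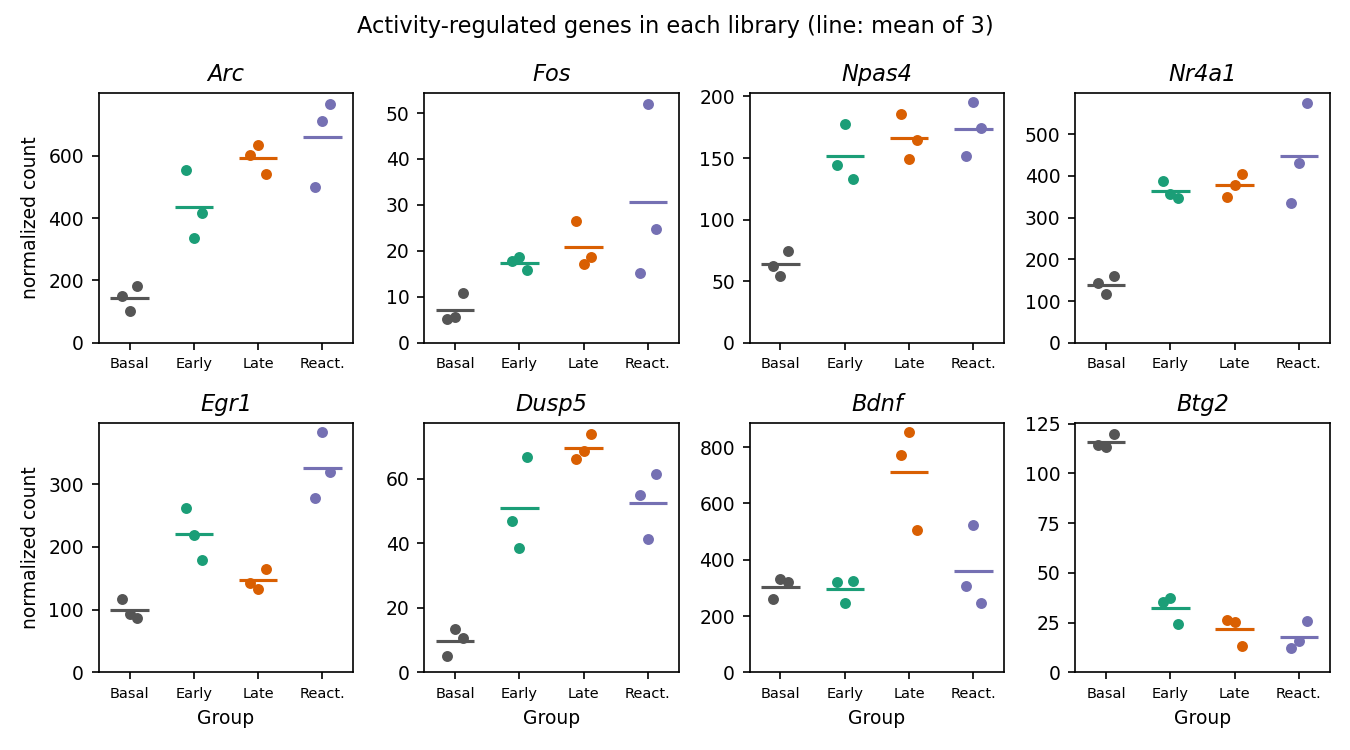
Normalized counts of 8 activity genes (vertical axes, starting at 0) are shown for the 3 libraries of each group, with a line at the group mean. Arc, Fos, Npas4, Nr4a1, Egr1 and Dusp5 have every activated library above Basal, Btg2 has every one below, and for Bdnf the mean of Late, 710, stands above 304 in Basal while the other groups overlap it.

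Of 24 later response genes, which follow the first wave, 6 rose and 1 fell, with a median log2 fold change of 0.06, and 29.2% of the list was called beside 38.5% of all genes. Vgf, the precursor of secreted neuropeptides, had 241, 251 and 393 in Basal against 552, 662 and 655 in the Early libraries, 2213, 2288 and 1946 in the Late and 1693, 2048 and 1690 in the Reactivated ones (4.53-fold higher), and all activated libraries were above Basal although Late and Reactivated were more than 2 times Early. Nptx2, a secreted pentraxin that clusters AMPA receptors, rose 2.38-fold and Plk2, a kinase of synaptic scaling, 1.7-fold (610.2, 1162, 897 and 1067 in Basal, Early, Late and Reactivated). Of 19 genes of ERK signalling and its feedback, 10 rose and 3 fell (68.4% called), with a median log2 fold change of 0.65. Beside Dusp5 the rises included Dusp6, a cytoplasmic ERK phosphatase (1.82 ± 0.28), Spry2, an inhibitor of receptor signalling to ERK (1.92 ± 0.42), and Rasgrp1, an activator of Ras (1.92-fold). Dusp7 rose through Late (185, 190.3, 887 and 322 in Basal, Early, Late and Reactivated). The kinase Mapk3 (-0.52 ± 0.14) and the inhibitor Spry1 (-1.29 ± 0.40) fell. With the activated libraries as 1 group, and likewise with the Rn45s covariate, 4 of the list rose and 0 fell. These fits called 612 and 289 of all 15668 genes as risen, and 510 and 246 as fallen.

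Many genes of transmitter release were higher in the activated groups. Of 26, 17 rose and 2 fell, with a median log2 fold change of 0.52, beside 20% and 18.5% of all genes, and in 10 all activated libraries were above Basal. The latter held for 5.48% of all genes. Slc17a7, the vesicular glutamate transporter of hippocampal principal cells, had 2043, 2146 and 1578 in Basal against 2964, 2744 and 3268 in the Early libraries, 4427, 4723 and 4479 in the Late and 4425, 5392 and 4951 in the Reactivated ones, a rise of 2.11-fold (1.08 ± 0.12, adjusted p = 3e-05 by edgeR). Sv2b, a synaptic vesicle glycoprotein, rose 3.52-fold, from 549, 326 and 403 to 914 to 2072, with a median of 1709, over the activated libraries. Cplx1 and Stx1a, parts of the fusion machinery, rose by 1.77 ± 0.22 and 1.53 ± 0.24 on the log2 scale. Synpr, which encodes synaptoporin of granule cell terminals, fell 4.04-fold (498, 167, 77.5 and 142 in Basal, Early, Late and Reactivated), and Syt7 fell as well (-0.39 ± 0.13). The number that rose was 8 at the same total, 7 with the activated libraries as 1 group, 7 with the Rn45s covariate and 8 on the values as deposited. These settings called 1143, 612, 289 and 1301 of all 15668 genes as risen, in the order given.

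Of 23 postsynaptic scaffold and adhesion genes, 10 rose and 5 fell (65.2% called, beside 38.5% of all genes), with a median log2 fold change of 0.23. Shank1, a scaffold of excitatory synapses, rose 1.95-fold and Dlgap4 1.77-fold, and Lrrtm4, an adhesion molecule strong in granule cells, fell 2.96-fold (1660, 774, 478 and 474 in Basal, Early, Late and Reactivated) with no overlap. Of 29 glutamate receptor genes, 5 rose and 5 fell, with a median log2 fold change of 0.03, shares near the 20% and 18.5% of all genes, and at the same total 2 rose and 17 fell. The kainate receptor genes split, with Grik4, the high-affinity subunit of CA3, 2.12-fold higher (565, 1197, 1780 and 815 in Basal, Early, Late and Reactivated) and Grik2 2.27-fold lower (1923, 1229, 718 and 688 in Basal, Early, Late and Reactivated), while Neto1, their auxiliary protein, rose 2.16-fold. Of 14 GABA receptor genes, 1 rose and 4 fell, with a median log2 fold change of -0.34, and 35.7% of the list was called beside 38.5% of all genes. The falls included Gabrd (2.44-fold), the delta subunit of extrasynaptic receptors in granule cells, and Gabra4 (2.1-fold), its partner, and the libraries of each overlapped Basal. The calls of this list ended in the edgeR fit with the Rn45s covariate, which called 535 of all 15668 genes, and its median there was 0.17.

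Among channels of the membrane, Kcnq5 and Kcnn2 were higher in every activated library. Kcnq5, a subunit of the M-type potassium channel, had 205, 172 and 211 in Basal against 774, 641 and 738 in the Early libraries, 1058, 1133 and 902 in the Late and 475, 474 and 488 in the Reactivated ones, a rise of 3.61-fold (1.85 ± 0.13, adjusted p = 9.49e-07 by edgeR). Kcnn2, a calcium-activated potassium channel, rose 2.45-fold to almost the same level in each group (245, 613, 622 and 572 in Basal, Early, Late and Reactivated), and Kcnip4, an auxiliary subunit, fell 2.35-fold in the mean, with overlap and unequal activated groups (adjusted p among them = 0.00126). Of 34 potassium channel genes, 9 rose and 8 fell, with a median log2 fold change of -0.01, a share near the background in each direction. Of 26 sodium and calcium channel genes, 15 rose and 4 fell (73.1% called, beside 38.5% of all genes), with a median log2 fold change of 0.42. The median was -0.06 at the same total, where all genes had -0.48. Cacna1i, a T-type calcium channel, rose 1.89-fold, and Scn3a, a sodium channel of early development, fell 1.86-fold, from 1369, 1456 and 1204 to 619.9 to 788, with a median of 734.

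Genes of axons and the microtubule cytoskeleton were among those with the most calls. Of 33 tubulin, motor and microtubule protein genes, 25 rose and 1 fell, beside 20% and 18.5% of all genes, with a median log2 fold change of 0.67. Stmn2, a stathmin of growing axons, had 180.1, 94.3 and 205 in Basal against 360.1, 305 and 541 in the Early libraries, 873, 823 and 729 in the Late and 1038, 1198 and 1015 in the Reactivated ones, a rise of 4.39-fold (2.13 ± 0.23, adjusted p = 1.85e-05 by edgeR), and Stmn3 rose 2.53-fold and Tubb3, the neuronal beta tubulin, 2.39-fold. The groups did not overlap in these 3 genes, but Early was lower than Late and Reactivated in Stmn2 and Stmn3. Kif5a and Kif21b, kinesin motors, rose by 1.03 ± 0.15 and 1.32 ± 0.21 on the log2 scale, and Kif2a fell (-0.36 ± 0.13). The median was 0.33, 0.71 and 0.96 in Early, Late and Reactivated and the number that rose was 13 at the same total, 6 with the activated libraries as 1 group and 3 with the Rn45s covariate. These settings called 1143, 612 and 289 of all 15668 genes as risen, in the order given.

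Of 36 axon guidance genes, 16 rose and 8 fell (66.7% called, beside 38.5% of all genes), with a median log2 fold change of 0.19. No overlap with Basal was seen in 15, of which 10 lay above and 5 below it, beside 5.48% and 5.92% of all genes. Plxna1, a receptor of semaphorins, had 892, 784 and 1131 in Basal and almost equal means of 2411, 2474 and 2441 in the activated groups (2.61-fold higher, adjusted p among them = 0.98). Robo3, a Slit receptor family member, fell 2.41-fold (1507, 753, 595 and 544 in Basal, Early, Late and Reactivated), as did Sema5a above. Of 14 genes of immature neurons and proliferation, 5 rose and 3 fell (57.1% called), with a median log2 fold change of 0.30. Mki67, a marker of dividing cells, fell 3.92-fold (139, 50.1, 26.7 and 33.3 in Basal, Early, Late and Reactivated) with no overlap, beside Mcm6, and Dpysl3, a collapsin response protein, rose 1.54-fold.

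Lists of chromatin and RNA-processing genes held rises and falls in similar numbers, as all genes did (20% rose and 18.5% fell). At the same total they held many more falls than rises, again as all genes did (1143 rose and 6950 fell). Of the histone, cohesin and splicing lists below, 45.7%, 53.1% and 51.4% of the members were called, beside 38.5% of all genes. Of 35 histone modifying enzymes, 8 rose and 8 fell, with a median log2 fold change of -0.09. Kdm6a and Kdm5a, demethylases, fell 1.72-fold and 1.47-fold with no overlap, and Hdac9, a class IIa deacetylase, rose through Late (563, 768, 2513 and 946 in Basal, Early, Late and Reactivated). Of 32 genes of cohesin, CTCF and chromatin remodelling, 8 rose and 9 fell, with a median log2 fold change of -0.03. Stag1, a cohesin subunit, had 1193, 1385 and 1158 in Basal and 647 to 926, with a median of 717, over the activated libraries (1.64-fold lower), Chd7 fell 2.18-fold and Chd5 rose 2.66-fold, chiefly in Late and Reactivated. Of 37 splicing factors, 8 rose and 11 fell, with a median log2 fold change of 0.10. Srsf1 and Srsf10 fell 1.66-fold and 1.68-fold with no overlap, and Celf4 rose 1.68-fold. The balance of this list turned with a correction for GC content, an alternative added after seeing the data, under which 13 rose and 2 fell, and at the same total 2 rose and 20 fell.

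Of 12 nuclear long noncoding RNAs, 4 rose and 2 fell (50% called, beside 38.5% of all genes), with a median log2 fold change of 0.31. Snhg11, a neuronal host gene of small nucleolar RNAs, rose 1.96-fold with all activated libraries above Basal (25640, 44370, 59890 and 47690 in Basal, Early, Late and Reactivated), and Kcnq1ot1, an imprinted antisense RNA, fell 1.53-fold, with Early at the level of Basal (94720, 99560, 39540 and 59740 in Basal, Early, Late and Reactivated). Of 7 genes tested in the structural RNA list, 4 rose and 0 fell (57.1% called), with a median log2 fold change of 1.02. Rn45s rose 3.45-fold and Rpph1, the RNA of ribonuclease P, 4-fold in the log2 mean, both through Late and Reactivated (2979, 3453, 35260 and 14000 in Basal, Early, Late and Reactivated for Rpph1), and neither was free of overlap with Basal. Lars2, named beside them, is a protein-coding gene, that of the mitochondrial leucyl-tRNA synthetase, and not a structural RNA. It rose 3.44-fold through Reactivated (31160, 45690, 70120 and 383300 in Basal, Early, Late and Reactivated). By arithmetic means the log2 fold changes of Rn45s, Rpph1 and Lars2 were 2.16, 2.56 and 2.42 in place of 1.79, 2.00 and 1.78.

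Of 42 cytosolic ribosomal protein genes, 15 rose and 2 fell, with a median log2 fold change of 0.33, and the group medians were 0.02, 0.29 and 0.71 in Early, Late and Reactivated. Rps15 rose 2.16-fold with every activated library above Basal, and Rpl19 rose 2.06-fold and Rpl4 1.61-fold with overlap. Of 31 proteasome genes, 12 rose and 1 fell, with a median log2 fold change of 0.26, with Psmd7 2.03-fold, Psmd2 1.76-fold and Psmd3 1.72-fold higher. Of 20 heat shock protein genes, 5 rose and 0 fell, with a median log2 fold change of 0.29, and Hsp90ab1, a cytosolic chaperone, had 1946, 1672 and 2442 in Basal against 3578, 2598 and 4001 in the Early libraries, 4601, 4219 and 4257 in the Late and 5466, 6401 and 5454 in the Reactivated ones (2.18-fold higher, no overlap). Hsp90aa1 rose 1.64-fold and Hspa4l 1.44-fold. Of 37 respiratory chain and ATP synthase genes, 8 rose and 1 fell, with a median log2 fold change of 0.21, with Cox8a 1.6-fold higher and Ndufs1 1.38-fold lower. Of these 4 lists, in the order given, 40.5%, 41.9%, 25% and 24.3% of the members were called, beside 38.5% of all genes. At the same total the medians of these 4 lists turned to -0.14, -0.19, -0.18 and -0.26 in the order given, which is 0.33, 0.28, 0.29 and 0.21 relative to the median of all genes under that scaling. The calls of the first 3 lists ended in the edgeR fit with the Rn45s covariate, which called 535 of all genes, and their medians were -0.04, 0.28 and 0.31, so that those of the proteasome and heat shock lists were as large as before.

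Of 20 clock genes, 7 rose and 2 fell (45% called, beside 38.5% of all genes), with a median log2 fold change of 0.26, but 3 rose and 3 fell with upper quartile scaling and 1 and 7 at the same total. Npas2, a partner of Bmal1, was 1.76-fold higher and the repressor Nr1d2 1.81-fold lower. Of 15 glucocorticoid receptors and target genes, 2 rose and 1 fell, with a median log2 fold change of -0.15, and 20% of the list was called beside 38.5% of all genes. Pdk4, a kinase that shuts off pyruvate dehydrogenase, had 41.5, 66.2 and 71 in Basal against 55.3, 77.3 and 76 in the Early libraries, 1803, 1476 and 1030 in the Late and 206, 172 and 95 in the Reactivated ones, so the 4.14-fold rise of the log2 mean came mostly from Late, while Early overlapped Basal and Reactivated lay between. The arithmetic mean of the 3 groups, which gives Late more weight, was 3.22 above Basal on the log2 scale against 2.05 for the log2 mean. Tsc22d3, a leucine zipper protein induced by glucocorticoids, rose 1.38-fold in the mean in the same manner (158, 167, 380.2 and 160.4 in Basal, Early, Late and Reactivated), and Nr3c2, the mineralocorticoid receptor, was 1.24-fold lower at the edge of the threshold (adjusted p = 0.0484 by edgeR). The call of Nr3c2 ended in 17 of 29 other settings, and its adjusted p ran from 0.000763 to 0.712.

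**Figure D5:**
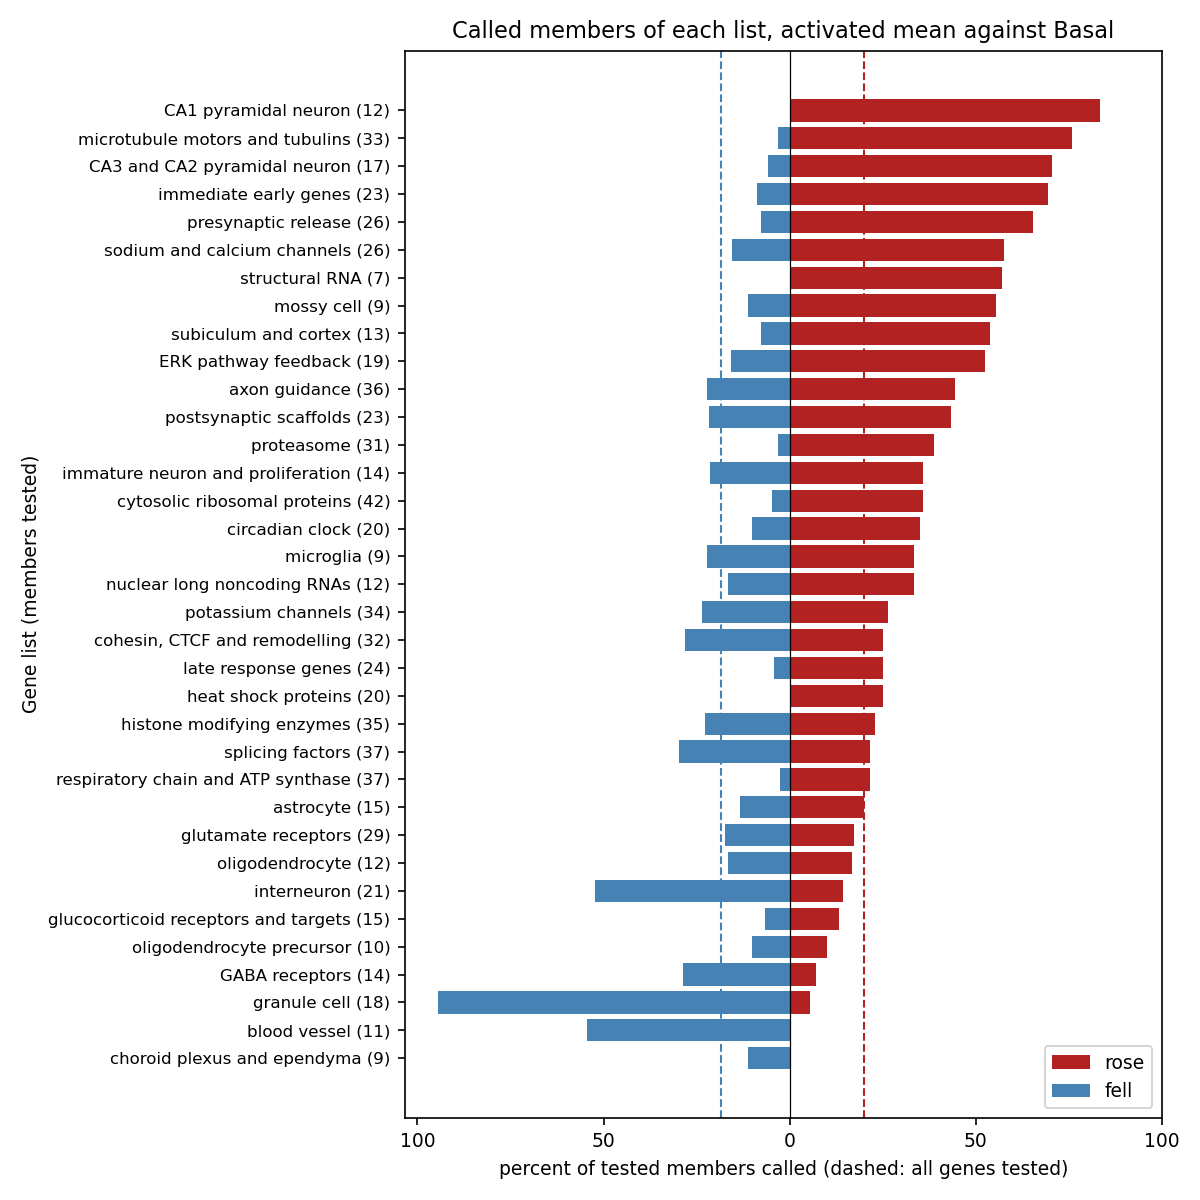
Bars give the percent of the tested members of each list that rose (right, red) and fell (left, blue) in the activated mean against Basal, with the number tested in brackets and dashed lines at the 20% and 18.5% of all genes. CA1, microtubule, CA3 and CA2 and immediate early lists reach furthest to the right and granule cell furthest to the left; 10 and 17 members of the CA1 and granule cell lists passed in those directions.

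The mean also called genes whose level was raised mainly in 1 activated group. Itgam, Pdk4, Csf2rb2 and Sox9, a factor of glia (144, 177, 1984 and 459 in Basal, Early, Late and Reactivated), had Early means close to Basal and Late means several times above it. For each of these the activated groups differed (adjusted p among them from 2.06e-08 for Csf2rb2 to 2.08e-06 for Sox9). Sox10, a factor of the oligodendrocyte lineage, rose through Reactivated (13.1, 17.1, 19.9 and 104 in Basal, Early, Late and Reactivated). These rises stand in the count of 3136 but are not changes common to the groups. Conversely, 3442 of the 9628 genes not called (35.8%) differed among the activated groups.

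The genes called were set against all genes tested for length and GC content, as a description. The median span of the gene in RefSeq was 22.9 kb for all genes tested, 24.3 kb for those that rose and 31.5 kb for those that fell, and 36.3 kb and 44.1 kb for the 846 and 881 called genes without overlap. Median GC content was 49.6% for all genes, 52.2% for those that rose and 46.4% for those that fell, and 52.1% and 48.5% without overlap. Length was known for 99.4% and GC content for 98.7% of the genes tested. With the GC correction 5590 genes were called, of which 4842 were shared with the calls above in the same direction.

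Motifs in start-site windows were counted for both directions. The tables of RefSeq matched 12065 of the 15668 genes, with 15263 windows of the same length. The palindrome TGACGTCA, searched on both strands as all motifs were, stood in 2.97% of windows of genes that rose, 2.21% of those that fell, 2.77% of all genes tested and 1.79% of the 32851 windows of the table. Its core TGACG, which the palindrome contains, stood in 29.4%, 26.2%, 28.5% and 20.8%. The AP-1 motif TGANTCA stood in 4.65% of windows of genes that rose and 5.57% of those that fell, and the CArG box in 1.68% and 1.3%. The Egr motif GCGTGGGCG was found in 0.905% and 1.12%, the Nr4a motif AAAGGTCA in 0.905% and 1.41%, and the E-box CACGTG in 9.47% and 8.1%. These shares are counts of letters and were not tested.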

How the data were processed

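RNA of sorted hippocampal nuclei was measured in 12 libraries, 3 for each title. The values are raw counts per gene symbol: the deposited table is called normalized, but its values were whole numbers with unequal totals and no empty whole numbers between 1 and 30, and size factors began at 0.734. Per the submitters' processing notes, Bowtie2 2.0, Cufflinks 2.2, DESeq2 and mm9 were used, with no role stated, and how reads were counted, on which annotation and strand, is not given in the sources used here. Reads of overlapping or antisense genes therefore cannot be told apart. Per the labels' protocols, libraries came from a stranded kit for total RNA, in which ribosomal cDNA was removed and 15 PCR cycles were run. The design text of the series names SmartSeq2, and the sources used here do not settle which of them was used. Duplicate reads were not marked by molecular identifiers. A replicate is a pool of mice.

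Genes were tested with edgeR 4.0.16 (TMM scaling, 4 group means fitted to all 12 libraries, quasi-likelihood F test, two-sided) in R 4.3.3, with limma 3.58.1 and DESeq2 1.42.0 as alternatives. The main contrast is the equal-weight mean of 3 groups minus Basal, and differences among the 3 used a test with 2 degrees of freedom. Adjusted p-values are Benjamini-Hochberg values over 15668 genes, and errors of log2 fold changes are standard errors. Normalized counts are counts divided by effective library size and multiplied by its geometric mean over libraries. The procedure was checked on simulated data. In 27 rows the symbol had become a date and 4 rows share a symbol. Spans, GC content and start-site windows come from RefSeq and GENCODE tables of GRCm38.p6, used by symbol; other coordinates are not given.

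Genes were named in 3 ways. Called genes with a mean of at least 50 in Basal or the activated groups and no overlap between 9 and 3 libraries were ranked by fold change, the first 12 in each direction with the activated groups within 2-fold, and the first 5 in each direction without that condition. Unnamed models, small RNA and date symbols were left out there. Up to 3 called members of each of 35 lists with the smallest p were added, with Arc, Fos, Npas4, Egr1, Nr4a1, Bdnf and Prox1. A few genes that met these rules are not reported here. Further list members are named as examples, chosen after their values were seen. The comparison, the lists (763 genes, of which 738 were tested) and the alternatives were chosen with earlier results of these data known, so the lists' counts are descriptions.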

Additional observations from a re-analysis of the deposited data

Results flagged for a closer look

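The named genes were screened for a difference among Early, Late and Reactivated in the same contrast with Basal, by the test of that difference in edgeR. Of 121 named genes, 75 differed at an adjusted p under 0.05 and 33 at an adjusted p under 0.001, a limit that 2107 of all genes tested (13.4%) also met. The figure given for each gene is the range of its 3 log2 fold changes, that is, the highest minus the lowest. Groups of 3 libraries were not screened for single outlying libraries.

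Genes whose rise was highest in Late were Pdk4 (4.36), Itgam (3.75), Cx3cr1 (3.58), Sox9 (3.49), Rpph1 (3.35), Csf2rb2 (2.81), Rn45s (2.70), Dusp7 (2.22), Chd5 (1.87), Siglech (1.85) and Hdac9 (1.71). Inhbb (2.04) and Vgf (1.79) were also highest in Late but lay above Basal in every library. Tsc22d3 (1.24), Kcnq5 (1.10), Grik4 (1.13) and Cacna1i (0.80) were highest in Late as well, with narrower ranges.

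Genes highest in Reactivated were Sox10 (2.59), Neat1 (2.24), Rps15 (1.56), Stmn3 (1.48), Cox8a (1.47), Stmn2 (1.43), Nov (1.36), Nptx2 (1.16), Egr1 (1.15), Rpl19 (1.11), Psmd2 (1.02) and Rpl4 (0.86). Neat1 and Cox8a were below or near Basal in Late. Genes with their lowest level in Late and Early nearest to Basal were Srsf10 (0.91), Kcnq1ot1 (1.33), Ermn (1.47) and Ccdc153 (1.82).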

How the results depend on the processing

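The test as reported called 6040 genes for the activated mean against Basal, 3136 up and 2904 down, and 7680 for differences among the activated groups. Under 29 settings the counts stayed within 1.5 times of these except as follows, and the causes were not tested. At the same total count 1143 genes were called up and 6950 down, with 288 and 1677 genes whose activated libraries were all above or all below Basal. On the values as deposited 2412 were called (1301 up, 1111 down), 4836 differed among the activated groups, and 233 and 231 had no overlap. With the 9 activated libraries as 1 group 1122 were called (612 up, 510 down). That setting counts the differences among Early, Late and Reactivated as error. With the Rn45s share as a covariate 535 were called (289 up, 246 down) and 2481 differed among the groups. Without the Late group 2675 were called (1311 up, 1364 down) and 3110 differed between the 2 groups left, and without the Early group 3179 differed and 2659 and 2710 genes had no overlap. Without Basal 3 and Early 3 together 2230 and 1933 had no overlap. With fewer libraries or groups to clear, more genes have no overlap by construction.

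Leaving out 1 library at a time gave 3633 to 6526 genes called, 1892 to 3382 up and 1741 to 3212 down, with the lowest counts without Basal 2 and then Basal 1 (3867, with 2069 up and 1798 down). It gave 5573 to 8068 genes that differ among the activated groups, 875 to 2104 genes all above and 945 to 1895 all below Basal. Basal 1 and Basal 2 were also the shallowest libraries, which limits what can be seen for genes with few counts such as Fos.

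Replicate numbers are shared across titles, but nothing says that they pair the samples, and the deviations of same-numbered libraries from their group means correlated with r from -0.205 to 0.461 (18 pairs, 4 over 0.1). For libraries of different numbers r ran from -0.378 to 0.209 (36 pairs, 7 over 0.1). The medians were -0.0369 and 0.00569, and the highest same-numbered r was above every pair of different numbers. A fit with replicate number as a block called 6043 genes (3192 up, 2851 down), of which 5809 were called before in the same direction, and 7572 differed among the activated groups.

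Among the named genes, 4 changed sign. Tsc22d3 had a log2 fold change of -0.0193 and Bdnf, which was not called, -0.006 at the same total, and with the Rn45s covariate Nr3c2 had 0.15 and Rn45s itself -0.0012. The value of Rn45s follows from the setting, as the covariate is its own share of the counts. Of 121 named genes, 120 kept direction and call in DESeq2, 119 in limma-trend, 120 with upper quartile scaling, 81 with the activated libraries as 1 group and 63 with the Rn45s covariate. With arithmetic in place of log2 means of the groups, 15 of the 121 moved by more than their standard error, all with the same sign, Pdk4 most (3.22 in place of 2.05). Without Basal 1 the calls of Fos, Lars2, Nr3c2, Pecam1, Sox10 and Vtn ended.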
